A study of Mus musculus with 24 samples.

Results

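The comparison is between splenic natural killer (NK) cells taken on day 2 from mice given RMA tumor cells and on day 2 from mice given RMA-KR tumor cells. Its members were chosen by their sample labels, which name the tumor and the day, and they are 6 of the 24 RNA-seq libraries of the series, 3 per tumor. They are called RMA early 1, 2 and 3 and RMA-KR early 1, 2 and 3. Day 2 is the stage at which both tumors were sampled on the same day, so that tumor and day are not mixed. The question is which genes differ in NK cells that meet a tumor with little to trigger them and in NK cells that meet a tumor built to trigger them.

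RMA is a mouse T cell lymphoma line. RMA-KR was made from it by knocking out B2m with CRISPR-Cas9, adding the NKG2D ligand Rae1-beta by lentivirus, and cloning by limiting dilution, so differences between the tumors include those of a single clone. The study traced both tumors in the spleen by ZsGreen, the marker carried by the lentivirus, and its methods describe RMA cells given the empty lentivirus. The hosts were wild-type C57BL/6J mice, per the study's methods females aged 7 to 9 weeks where nothing else was specified, and tumor cells were injected intravenously. NK cells were sorted from the spleen by flow cytometry as cells stained for NK1.1 or NKp46, in the same color, and without T and B cell surface proteins. The 4 control libraries came from wild-type mice without tumor, and the later stages used here are RMA on day 9 and RMA-KR on day 14, with 3 libraries each.

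NK cells read a balance of surface signals. Inhibitory receptors of the Ly49 and NKG2A families bind MHC class I on healthy cells, and a target that has lost class I, as a cell without beta-2 microglobulin does, no longer engages them. NKG2D is an activating receptor for stress-induced ligands such as the Rae1 proteins, and engaged NK cells release perforin and granzymes and secrete interferon-gamma and chemokines.

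The authors' raw counts summed to 7203171 in RMA early 1, 9551915 in RMA early 2 and 7309026 in RMA early 3. They summed to 10451413, 12900199 and 12261320 in RMA-KR early 1, 2 and 3, so every RMA-KR library was deeper than every RMA library. The controls held 5138651, 10526995, 9617408 and 10562991 counts. Values below are normalized CPM, counts scaled to a common depth by the library's effective size, and a log2 fold change is RMA-KR early minus RMA early, so that a positive value is higher with RMA-KR. A gene is said to have risen or fallen where its adjusted p was under 0.05 and its fold above 2. The sources used here do not say from which mouse or mice each day 2 library came, so the p-values measure spread between libraries. That spread was estimated over all 24 libraries of the series, not from the 6 day 2 libraries alone.

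RMA early 1 and RMA early 2 stood apart from the rest. Of 6906 tested genes with a mean of at least 20 normalized CPM over the 24 libraries, 112 were under 1 normalized CPM in RMA early 1 and 127 in RMA early 2. The same count was 0 in RMA early 3, then 38, 24 and 10 in RMA-KR early 1, 2 and 3, and 3, 11, 4 and 18 in the controls. Among the later libraries it was 80 in RMA-KR late 3 and at most 12 in the others. The missing genes were mostly not shared, with 80 genes under 1 in RMA early 1 alone among the 6 libraries, 109 in RMA early 2 alone and 15 in both. Genes with any count numbered 17602, 15389 and 22210 in the RMA libraries and 21717, 20254 and 18708 in the RMA-KR libraries. Correlation between libraries of a group across genes was 0.81 to 0.853 for RMA and 0.855 to 0.888 for RMA-KR, against 0.913 to 0.939 for the controls, a description over genes that share libraries.

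**Figure D1:**
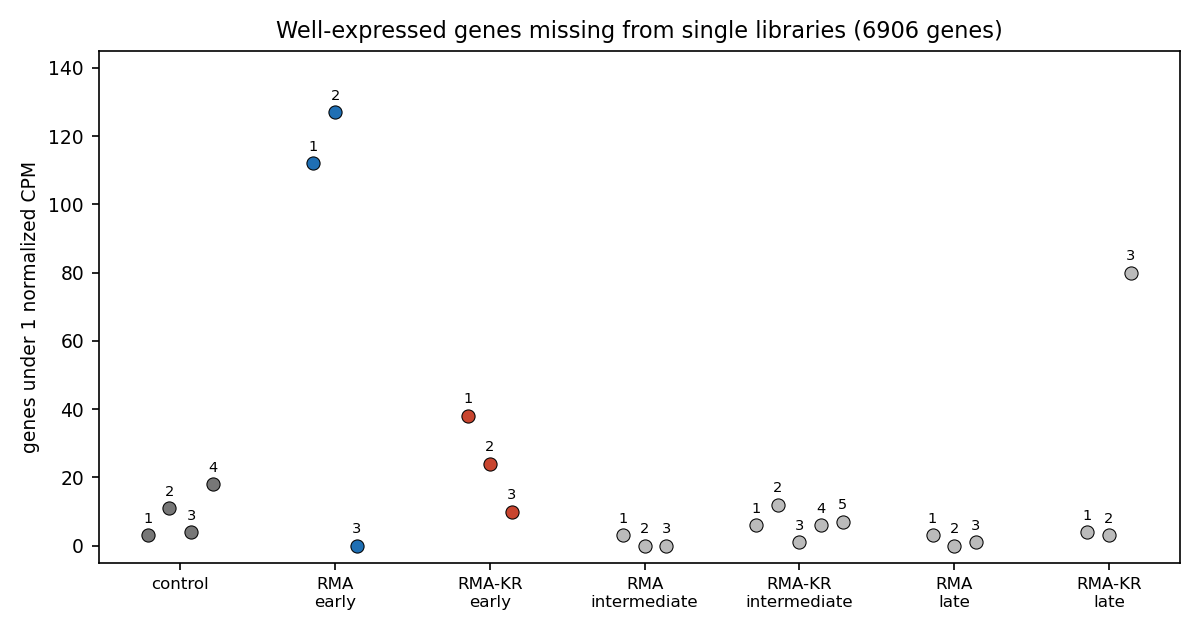
For each of the 24 libraries by group, the vertical axis gives how many of 6906 genes with a mean of at least 20 normalized CPM were under 1 normalized CPM in it, with replicate numbers above the points. RMA early 1 and 2, at 112 and 127 genes, lie above all other libraries.

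The NK label held against its markers. All 14 markers were tested, and their summed level was 31097, 31256 and 29039 normalized CPM in RMA early 1, 2 and 3 and 29922, 32144 and 32860 in RMA-KR early 1, 2 and 3. The most abundant was the granzyme gene Gzma, and Ncr1, which encodes NKp46, was at 3440, 3414 and 2799 with RMA and 3066, 3285 and 3254 with RMA-KR. These values overlap, and the median log2 fold change of the NK markers was -0.02. By edgeR 0 of the 14 passed, 0 had an unadjusted p under 0.05, and DESeq2 and limma each called 0. In these bulk libraries fewer cells expressing a gene and less of its RNA per cell cannot be told apart.

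Markers of other spleen cells were low beside these sums, and their part in the results was not tested. T cell markers (12 of 15 tested, led by Trbc1, with Cd8b1 at 0 counts) summed to 491, 608 and 559 normalized CPM with RMA and 605, 829 and 800 with RMA-KR. B cell markers (9 of 10 tested, led by Cd22) summed to 5.07, 0.412 and 13.5 with RMA and 4.08, 24.1 and 6.36 with RMA-KR. Both lists overlap between the tumors, and the B cell sums are small in every library. Plasma cell markers (4 of 7 tested, led by Ighm, with Mzb1 and Derl3 at 0) summed to 213, 288 and 254 against 302, 442 and 361, higher in each RMA-KR library, though the values of each single member overlapped. Macrophage and monocyte markers (3 of 13 tested, led by Lyz2, with C1qa, C1qc and Fcgr1 at 0) summed to 7.21, 3.71 and 21.5 against 26.7, 1.84 and 10.1. Granulocyte markers (3 of 14 tested, led by Ngp, with S100a8, S100a9, Elane, Mmp8, Mmp9, Ly6g and Prtn3 at 0) summed to 0.534, 1.86 and 1.98 against 10.8, 1.23 and 0.402. These 2 myeloid lists overlapped between the tumors, and RMA-KR early 1 was the highest library of both.

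Of the remaining lists, dendritic cell and MHC class II genes (9 of 11 tested, led by Zbtb46) summed to 73.1, 33.6 and 86.9 with RMA and 46.9, 11.6 and 24.1 with RMA-KR. Erythroid markers (3 of 10 tested, led by Car2) summed to 185, 294 and 349 against 367, 592 and 518. That sum is almost all Car2, the other tested members overlapped, and the list median was 0.07. Platelet and megakaryocyte markers (6 of 7 tested, led by Ppbp) summed to 9.34, 31.2 and 21.4 against 24.4, 21.5 and 20.4, and to at most 5.02 in the controls. The class II and platelet sums overlap between the tumors. Of the class II list 2 genes were lower without overlap (22.2%, against 5.56% of all tested genes) and 0 higher, and DESeq2 called 1. Basophil and mast cell markers (2 of 6 tested, led by Prss34, with Fcer1a at 0) summed to 0.400, 0 and 6.74 against 21.7, 0.689 and 1.45. Stromal and endothelial markers (6 of 8 tested, led by Pecam1) summed to 47.1, 70.3 and 148 against 180, 111 and 225. NKG2D ligand genes (2 of 5 tested, led by Ulbp1), which the host also carries, summed to 9.47, 13.7 and 47.7 against 13.4, 6.74 and 30.8. Sums of these last 3 lists overlap between the tumors. All 6 tested stromal and endothelial genes had positive log2 fold changes, with a list median of 1.58. Of them 2 were higher at an unadjusted p under 0.05 and 1 was higher without overlap (16.7%, against 7.21% of all tested genes). No marker of any of these lists passed in edgeR, 7 had an unadjusted p under 0.05 with a higher value and 1 with a lower value, and DESeq2 called 1 and limma 0. Over all tested genes 6.64% were higher and 5.65% lower at that unadjusted p.

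On day 2 the list with the largest share of genes lower with RMA-KR without overlap was that of cytosolic ribosomal proteins (43%, against 5.56% of all tested genes), though 0 members passed singly in edgeR (24 lower and 1 higher at an unadjusted p under 0.05; DESeq2 called 9 and limma 0). Single genes that fell with RMA-KR included the granzyme gene Gzmc, the stress-response factor gene Atf4 and the helicase gene Dhx15, and single genes that rose included Ndufaf7, Cnot9 and Prkd3. Perforin, granzymes A and B, interferon-gamma and NKG2D had values that overlapped or differed by less than a fold of 2. Across 17097 tested genes, 52 passed (0.304%) in edgeR's quasi-likelihood test after Benjamini-Hochberg adjustment, 22 higher with RMA-KR (0.129%) and 30 lower (0.175%). In 51 of the 52 the 3 RMA and 3 RMA-KR values did not overlap, beside 2183 of all tested genes (12.8%), and 47 were protein coding. Calling by a small p and a fold above 2 favors genes without overlap, so the 51 are no separate support. The gene that overlapped was Tspan31, at 5.87, 0 and 5.16 with RMA and 0 in all 3 RMA-KR libraries. The count depended on the RMA libraries that stood apart, at 21 without RMA early 1, 15 without RMA early 2 and 219 without RMA early 3, and on RMA-KR early 2, at 10 without it. It was 33 without RMA-KR early 3. At an unadjusted p under 0.05 were 1135 genes higher with RMA-KR (6.64%) and 966 lower (5.65%). Without both RMA early 1 and 2, a setting added after the data were seen in which the lone RMA library is assumed to vary like the other groups, edgeR called 0 genes with 997 at an unadjusted p under 0.05, beside 2101 with every library.

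The gene with the smallest p, Ndufaf7 (17:78937136-78948052, mm10), encodes an assembly factor of mitochondrial complex I. It was at 13.1, 14.7 and 8.20 normalized CPM in RMA early 1, 2 and 3 and at 68.2, 62.7 and 71.1 in RMA-KR early 1, 2 and 3. All 3 RMA libraries lay below and all 3 RMA-KR libraries above the 4 controls, which ran from 41.0 to 52.0. It rose 5.6-fold with RMA-KR (12 ± 3.40 against 67.3 ± 4.24, SD, n = 3 each; log2 2.48, SE 0.36, edgeR quasi-likelihood test with Benjamini-Hochberg adjusted p = 0.00796). Against the controls its log2 fold change was -1.92 for RMA and 0.57 for RMA-KR, 2 comparisons that share the control libraries. Without RMA early 1 and 2 the tumor difference was 3.04 on the log2 scale and did not pass (adjusted p = 0.197 in the same edgeR test with Benjamini-Hochberg adjustment, 3.33e-09 to 0.236 over its alternatives).

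The other genes highest with RMA-KR were mostly near 0 with RMA and present in the controls. Zkscan5, a zinc finger gene, was at 0, 0 and 0.132 normalized CPM with RMA and 3.15, 1.15 and 22.7 with RMA-KR, beside 12.1 to 18.1 in the controls. Rab35, a small GTPase gene of endosomal recycling, was at 2.00, 1.86 and 2.51 against 13.1, 26.4 and 7.73, with controls from 8.01 to 13.3. Ube2q1, a ubiquitin-conjugating enzyme gene, was at 2.80, 6.91 and 11 against 42.8, 40.4 and 35.6. In each of the 3 genes every RMA-KR library exceeded every RMA library, and the RMA libraries lay below all controls. The 10 highest and 10 lowest genes were taken from called genes without overlap, so that trait was set by the choice. Rab35 rose with a log2 fold change of 2.89 (SE 0.56) and Ube2q1 with 2.52 (SE 0.53), from 2.29 to 3.22 and from 2.15 to 3.03 with 1 of the 6 libraries left out. For Zkscan5, with 1 count over the RMA libraries and 331 over the RMA-KR libraries, the ratio of rates was 226 (95% interval 40.3 to 8950). RMA-KR early 3 held 282 of the 331, and with 1 of the 6 libraries left out the log2 fold change ran from 5.34 to 9.57. Intervals and floors here cover counting error only.

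Amigo1, an adhesion molecule gene, was at 0.400, 0.103 and 0 with RMA and 12.9, 21.2 and 3.78 with RMA-KR (4 against 463 counts). Prkci, an atypical protein kinase C gene, was at 0.267, 0.309 and 0.397 against 5.56, 17.7 and 5.15, and Zwilch, a kinetochore gene, at 0, 0 and 0.529 against 2.78, 7.89 and 3.46. These 3 genes rose without overlap, and Prkci was near its control level with RMA-KR and below it with RMA. Fsd2 was at 0 in all 3 RMA libraries and at 10.4, 10.4 and 3.22 with RMA-KR, at least 21.7-fold higher when each RMA library is set to a floor of 3 counts. Zfp939 was likewise at 0 with RMA and at 15.4, 10.5 and 15.0 with RMA-KR, at least 36.9-fold higher, and AC144941.1 at least 6.40-fold higher. Zfp939 was also at 0 in control 2, and at 9.06, 9.06 and 2.14 in controls 1, 3 and 4. Of 16 alternatives Zfp939 passed in 6, Fsd2 in 8 and AC144941.1 in 6. Zfp939 is annotated as a transcribed pseudogene of the zinc finger family, which has near-identical copies, so its count is uncertain, and AC144941.1 as a long noncoding RNA.

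Among genes that fell, several were absent or nearly absent with RMA-KR. Gzmc, a granzyme gene of activated killer cells, was at 4.27, 11.9 and 4.36 normalized CPM with RMA and 0, 0.0766 and 0 with RMA-KR, beside 1.74 to 4.85 in the controls. The RMA-KR libraries held 1 Gzmc count in all against 180 with RMA, a ratio of 264 (95% interval 46.7 to 10500; edgeR quasi-likelihood test with Benjamini-Hochberg adjusted p = 0.0187). Stk35, a kinase gene, was at 8.14, 28.0 and 3.57 against 0, 0 and 0.0805, a ratio of 527 (94.0 to 20900). RMA early 2 held 272 of the 360 Stk35 counts with RMA, and with 1 of the 6 libraries left out its log2 fold change ran from -10.09 to -7.22. Both genes were present in every RMA and control library and had 1 count over the RMA-KR libraries. Clic3, a chloride channel family gene, was at 5.34, 16.1 and 2.51 with RMA and 0 in all 3 RMA-KR libraries, at least 31.9-fold lower. RMA early 2 also held 115 of the 180 Gzmc counts with RMA and 156 of the 215 of Clic3. The processed pseudogene Gm36298 (ratio 587, 105 to 23300) and the antisense gene Gm44941 (ratio 70.8, 23.8 to 347) also fell, but a pseudogene shares reads with its parent gene and an antisense gene with its partner, so these are uncertain. RMA early 1 held 221 of the 401 Gm36298 counts with RMA. With 1 of the 6 libraries left out the log2 fold change of Gm36298 ran from -10.391 to -7.985.

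The lower genes at higher levels kept a measurable amount with RMA-KR. Llgl1, a cell polarity gene, was at 20.1, 159 and 91.3 with RMA and 13.0, 6.13 and 16.9 with RMA-KR, and it fell by 2.91 on the log2 scale. The mitochondrial ribosomal RNA gene mt-Rnr1 was at 54.3, 30.9 and 50.9 against 8.25, 4.59 and 5.87 and fell by 2.86, in counts left after the authors had removed reads of ribosomal RNA. Sgsh, a lysosomal enzyme gene, was at 59.4, 33.3 and 70.3 against 3.62, 1.30 and 17.8. All RMA-KR values of these 3 genes lay below all RMA values. Lap3, an aminopeptidase gene, was at 45.0, 59.6 and 26.3 against 8.16, 9.73 and 14.0 and fell by 2.04. Cbx5, which encodes the heterochromatin protein HP1-alpha, was at 51.5, 220 and 108 against 36.9, 22.4 and 20.4 and fell by 2.25. In Cbx5 and Llgl1 the RMA libraries were far from one another, with RMA early 2 the highest. With 1 of the 6 libraries left out the log2 fold change ran from -3.38 to -2.22 for Llgl1 and from -2.62 to -1.58 for Cbx5.

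**Figure D2:**
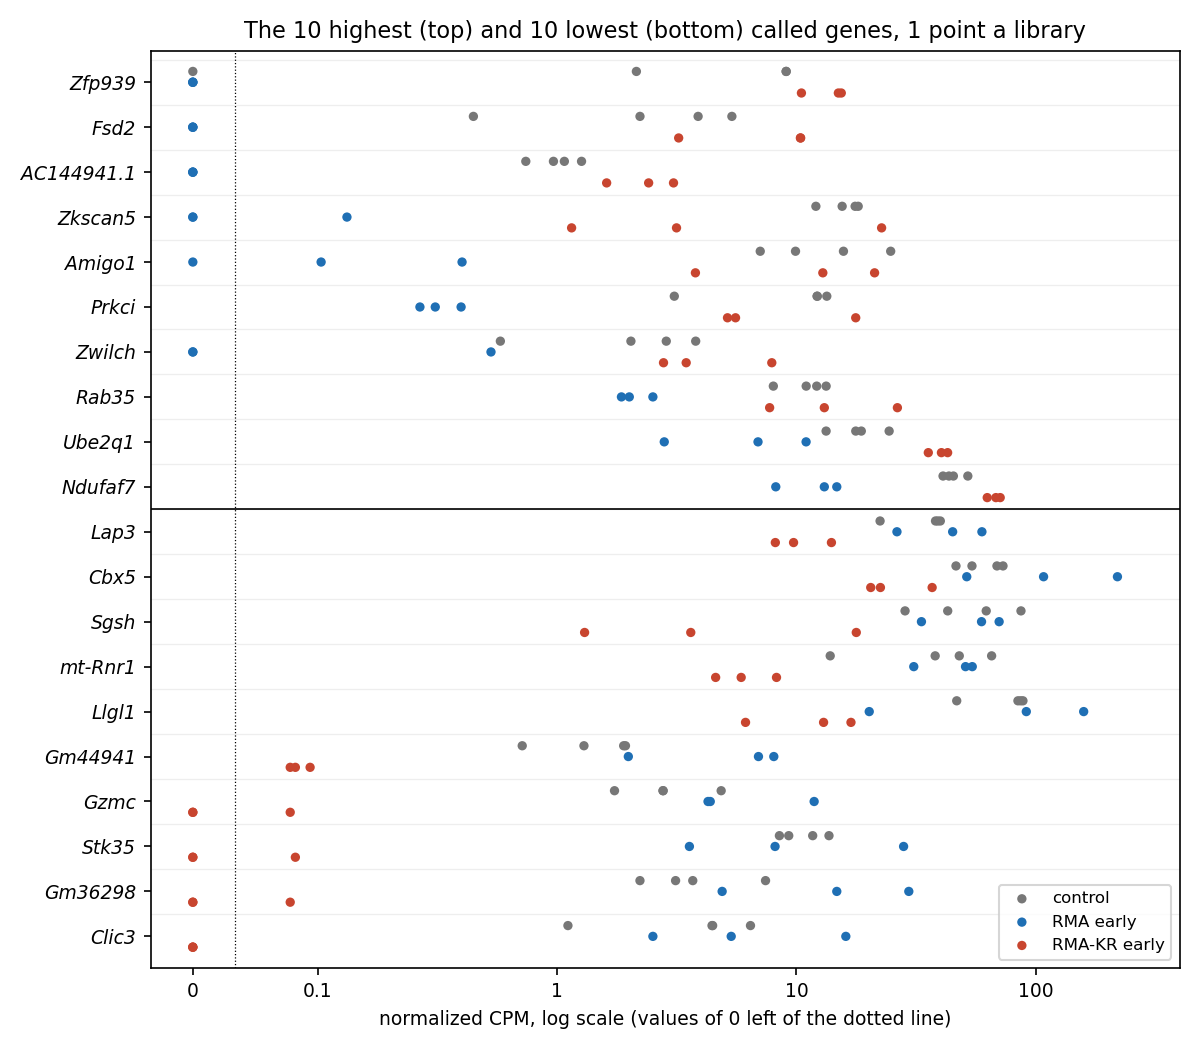
Normalized CPM, on a log horizontal axis with values of 0 left of the dotted line, of the 10 highest (top) and 10 lowest (bottom) genes that passed without overlap, with 1 point for each control (gray), RMA early (blue) and RMA-KR early (red) library. Ndufaf7 sits at 13.1, 14.7 and 8.20 with RMA and 68.2, 62.7 and 71.1 with RMA-KR.

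Several other genes were chosen after their values were seen, for their levels or their roles. Dhx15, an RNA helicase gene of splicing, was at 414, 382 and 322 normalized CPM with RMA and 175, 184 and 143 with RMA-KR, with controls from 296 to 328. Lasp1, an actin-binding protein gene, was at 667, 683 and 649 against 255, 156 and 205, with controls from 576 to 681. For both genes the RMA-KR libraries lay below every RMA and control library. Dhx15 fell by 1.16 on the log2 scale (SE 0.17, edgeR quasi-likelihood test with Benjamini-Hochberg adjusted p = 0.00796) and Lasp1 by 1.70 (SE 0.30). Dhx15 passed in 14 of 16 alternatives, Ndufaf7 in 13 and Lasp1 in 12, and Dhx15 and Ndufaf7 were the 2 genes of the 52 that passed whichever of the 6 libraries was left out. Without RMA early 1 and 2 the log2 fold change was -0.95 for Dhx15 and -1.66 for Lasp1, neither of which then passed.

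Of genes chosen in this way, Tnfrsf1a encodes a tumor necrosis factor receptor, Tank a TRAF-binding adaptor and Nfkb2 the p100 precursor of noncanonical NF-kappaB. Tnfrsf1a was at 78.3, 69.1 and 75.5 with RMA and 34.7, 22.3 and 16.8 with RMA-KR, and Tank at 127, 77.6 and 81.8 against 32.5, 17.9 and 35.8. Nfkb2 was at 74.5, 220 and 154 against 70.1, 44.5 and 39.4. None of the 3 overlapped, though RMA early 1 and RMA-KR early 1 were close for Nfkb2. They fell by 1.60, 1.73 and 1.54 on the log2 scale. Nfkb1, a listed gene, lay the other way at 61.6, 147 and 153 with RMA and 327, 363 and 196 with RMA-KR, and did not pass (log2 1.29, SE 0.34, edgeR Benjamini-Hochberg adjusted p = 0.115).

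Genes chosen in the same way that rose included Cnot9, a subunit gene of the CCR4-NOT deadenylase, at 34.2, 26.1 and 53.1 with RMA and 133, 147 and 149 with RMA-KR. Prkd3, a protein kinase D gene that lies close to Ndufaf7 on chromosome 17, was at 65.8, 35.8 and 73.9 against 168, 206 and 147. Polr2a, the largest subunit of RNA polymerase II, was at 68.4, 39.9 and 51.6 against 140, 163 and 161. Each RMA-KR value of these genes exceeded each RMA value, and every RMA value lay below the controls, whose lowest was 62.5 for Cnot9, 102 for Prkd3 and 110 for Polr2a. The log2 fold changes were 1.92, 1.57 and 1.54.

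Cytosolic ribosomal proteins, the protein part of the 80S ribosome, were the list with the largest share lower without overlap. Genes with symbols of cytosolic ribosomal proteins, tested or not, took 0.661%, 0.732% and 0.757% of all counts in RMA early 1, 2 and 3. In RMA-KR early 1, 2 and 3 they took 0.460%, 0.595% and 0.584%. This set was picked by symbol and is not the same as the tested list. The controls were at 0.858%, 0.803%, 0.768% and 0.896%, so that every RMA-KR library lay below every RMA library and every RMA library below every control. For the 79 tested genes of the list, the log2 ratio to the control mean was taken with 0.5 added to each normalized CPM. Its median over genes was -0.26, -0.10 and -0.10 in RMA early 1, 2 and 3 and -0.85, -0.66 and -0.49 in RMA-KR early 1, 2 and 3.

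In the fit the median log2 fold change between the tumors was -0.53, beside 0.03 over all tested genes, and it ran from -0.62 to -0.43 over the alternatives. Without RMA early 1 and 2 it was -0.52. Of the 79 genes 65 had a negative value, and 34 were lower with RMA-KR without overlap between the libraries (43%, against 5.56% of all tested genes), while 1 was higher. In edgeR 0 of the 79 passed, with 24 lower and 1 higher at an unadjusted p under 0.05 (5.65% and 6.64% of all tested genes), and DESeq2 called 9 and limma 0. The late comparison gave a list median of -0.40 between RMA-KR on day 14 and RMA on day 9. Ribosomal protein genes have many processed pseudogenes with near-identical sequence, so single members are uncertain. The list median and shares rest on the same counts, and what the pseudogenes do to them was not tested.

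Rpl8, a core protein of the large subunit, was at 493, 500 and 600 normalized CPM with RMA and 215, 200 and 239 with RMA-KR, with controls from 593 to 758. Rpl39, a small protein of the exit tunnel, was at 43.4, 35.8 and 42.8 against 7.33, 11 and 11.5, with controls from 36.0 to 49.7. In both, RMA-KR lay below RMA and controls without overlap. Their log2 fold changes were -1.28 (SE 0.31) and -2.03 (SE 0.49), and neither passed (edgeR quasi-likelihood test with Benjamini-Hochberg adjusted p = 0.0775 and 0.0777). Rplp2, a protein of the acidic stalk, was at 43.4, 53.7 and 45.1 against 14.7, 13.7 and 13.6, and Rpsa, of the small subunit, at 60.4, 57.6 and 65.6 against 17.4, 19.5 and 28.3. Rps4l differed in direction, at 6.54, 8.45 and 7.40 with RMA and 7.05, 44.7 and 17.0 with RMA-KR, which overlap.

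Ribosomal protein messages are short. Among the shortest genes, 67 ribosomal protein genes, taken at any level, had a median of -0.57 on the log2 scale, and 40.3% of them were lower without overlap. Other short genes with a mean of at least 20 normalized CPM, 1953 in number, had a median of 0.07 and 7.94% lower without overlap. These sets were not matched in level or in length, with median lengths of 578.5 and 695 bases. Whether length plays a part was not tested. Genes for ribosome assembly, a list apart from the ribosomal proteins themselves, had a median of -0.06 over 30 genes, with 6 lower and 0 higher at an unadjusted p under 0.05 (5.65% and 6.64% of all tested genes) and 0 passing in edgeR, DESeq2 or limma. Its median was -0.32 to -0.12 with 1 of the 6 libraries left out and -0.19 without RMA early 1 and 2. That list includes the methyltransferase gene Fbl and Ncl, which encodes nucleolin, and 6 members did not overlap and were lower with RMA-KR (20%, against 5.56% of all tested genes).

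**Figure D3:**
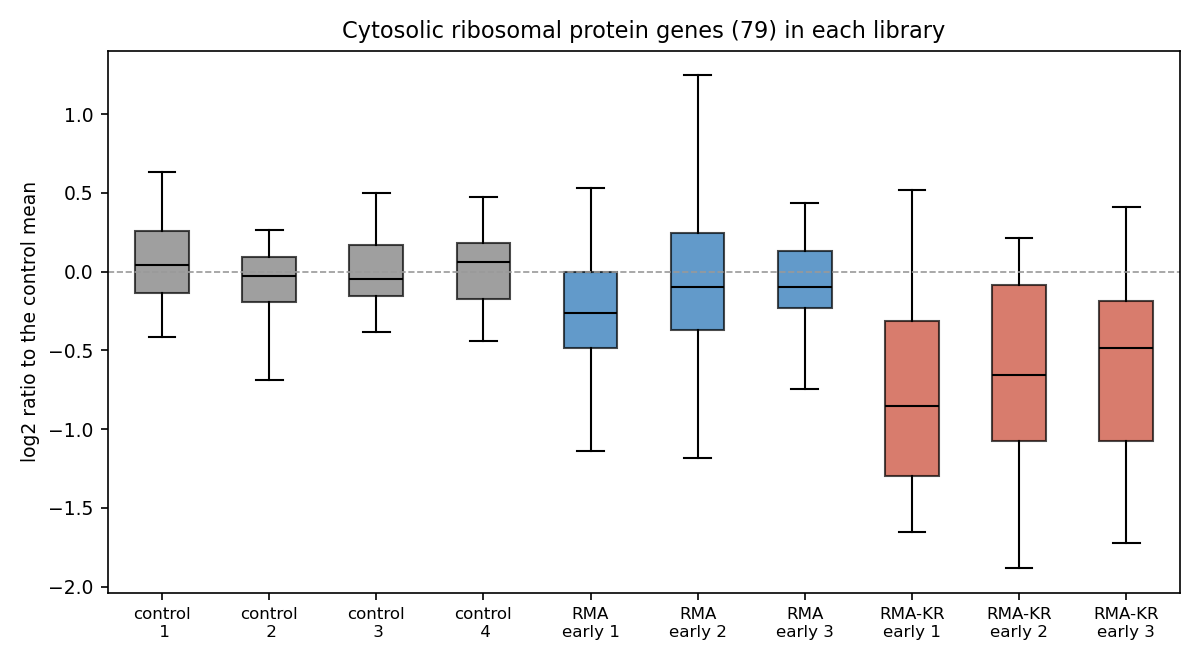
Log2 ratio to the control mean of 79 cytosolic ribosomal protein genes in each control, RMA early and RMA-KR early library, with 0.5 added to each normalized CPM. Boxes give the quartiles with the median as a line and whiskers the 5th and 95th percentiles over genes, and the medians are -0.26, -0.10 and -0.10 with RMA and -0.85, -0.66 and -0.49 with RMA-KR.

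Promoters of ribosomal protein genes are shown because 34 of the 79 were lower without overlap (43%, against 5.56% of all tested genes). In edgeR 0 passed, with 24 lower and 1 higher at an unadjusted p under 0.05 (5.65% and 6.64% of all tested genes), and DESeq2 called 9 and limma 0. The letters CCGGAAG, a core that ETS family factors are known to bind, were searched on either strand from 250 bases before to 50 after the start, in RefSeq promoters of build GRCm38.p6. Of 79 tested genes 58 had a promoter, and 24 of these held the letters (41.4%), beside 2119 of 11433 tested genes (18.5%) and 2683 of 27025 genes in all (9.93%). The median over the 24 genes with the letters was -0.34 on the log2 scale, and 8 of them were lower without overlap. The 34 genes without had a median of -0.63, and 14 were lower without overlap. A match is a description of the window and says nothing about binding. Of the genes with a match, a single promoter and lower values without overlap, the 3 with the smallest p are given, in capitals at the match, which reads CTTCCGG on the printed strand, from chrX:37085173-37085472 (minus strand), chr7:141447401-141447700 (plus strand) and chr9:120127516-120127815 (plus strand).
Rpl39: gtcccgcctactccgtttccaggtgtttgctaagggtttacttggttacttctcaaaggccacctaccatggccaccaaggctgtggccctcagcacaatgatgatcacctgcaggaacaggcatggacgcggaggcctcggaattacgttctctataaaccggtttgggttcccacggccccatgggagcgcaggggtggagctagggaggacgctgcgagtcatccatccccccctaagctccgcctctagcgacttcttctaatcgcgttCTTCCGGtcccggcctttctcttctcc
Rplp2: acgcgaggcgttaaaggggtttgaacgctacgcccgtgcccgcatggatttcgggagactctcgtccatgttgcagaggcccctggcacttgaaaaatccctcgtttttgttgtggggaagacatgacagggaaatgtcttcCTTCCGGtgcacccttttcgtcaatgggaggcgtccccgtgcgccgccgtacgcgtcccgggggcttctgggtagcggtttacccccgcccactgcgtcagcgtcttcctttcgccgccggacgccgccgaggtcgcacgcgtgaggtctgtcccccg
Rpsa: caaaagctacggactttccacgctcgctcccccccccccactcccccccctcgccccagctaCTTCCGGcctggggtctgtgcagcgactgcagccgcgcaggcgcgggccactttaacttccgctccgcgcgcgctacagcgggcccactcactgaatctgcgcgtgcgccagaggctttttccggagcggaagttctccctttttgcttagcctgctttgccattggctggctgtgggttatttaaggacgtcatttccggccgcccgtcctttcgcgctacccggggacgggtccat

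Genes of the response to type I interferon, a signal that activates NK cells, had negative values in 26 of 36 tested members, beside 47.5% of all tested genes. Trim30a, chosen after its values were seen, was at 262, 302 and 261 normalized CPM with RMA and 177, 232 and 155 with RMA-KR, with controls from 162 to 224, and Ifit2, which binds viral RNA, at 65.8, 190 and 88.3 against 22.2, 36.0 and 72.2. Trim30a did not overlap between the tumors, its RMA values lay above the controls, and Ifit2 overlapped. Trim30a had a log2 fold change of -0.55 (SE 0.19, edgeR Benjamini-Hochberg adjusted p = 0.277) and Ifit2 of -1.40 (SE 0.44), the latter from -1.97 to -0.83 with 1 of the 6 libraries left out. The median over 36 genes was -0.49, from -0.61 to -0.25 over the alternatives and -0.53 without RMA early 1 and 2. Without overlap 6 were lower (16.7%, against 5.56% of all tested genes) and 1 higher. In edgeR 0 passed, 7 were lower and 1 higher at an unadjusted p under 0.05, beside 5.65% and 6.64% of all tested genes, and DESeq2 called 1 and limma 0. Rsad2 and Isg15 were under 10 normalized CPM in all 6 libraries, with log2 fold changes of -1.76 (SE 1.16) and -0.82 (SE 0.75). Rsad2 had 3, 0 and 52 counts with RMA, and its value ran from -3.46 to 1.86 with 1 of the 6 libraries left out, so its direction rests on RMA early 3. Genes induced by interferon-gamma, with those of antigen presentation, had a median of -0.02 over 32 genes, with 4 higher and 4 lower at an unadjusted p under 0.05, and 0 passed in edgeR, 1 in DESeq2 and 0 in limma. Tap1, the peptide transporter gene, was among the lower at 459, 389 and 496 against 297, 263 and 259.

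S phase genes had a median of -0.46 over 44 genes and kept its sign in the alternatives, from -0.62 to -0.19. Pcna, the replication clamp gene, was at 109, 175 and 155 with RMA and 82.2, 72.9 and 62.4 with RMA-KR. Mcm2, of the replicative helicase, was at 140, 425 and 284 against 153, 83.9 and 63.2. Pcna did not overlap, while for Mcm2 RMA-KR early 1 lay above RMA early 1. In edgeR 0 passed, 6 were lower and 0 higher at an unadjusted p under 0.05, beside 5.65% and 6.64% of all tested genes, and DESeq2 called 2 and limma 0. The summed S phase level was 2419, 4460 and 3920 with RMA and 2953, 2689 and 2730 with RMA-KR, beside 2429 to 2901 in the controls, so RMA early 1 was at the control level. G2 and mitosis genes had a median of -0.01 over 51 genes, Cbx5 being the listed gene that fell, and 7 were lower without overlap (13.7%, against 5.56% of all tested genes) and 1 higher. That median was -0.32 to 0.19 with 1 of the 6 libraries left out and -0.43 without RMA early 1 and 2. Mki67 was at 0.133, 87.5 and 86.9 with RMA and 34.3, 52.8 and 88.0 with RMA-KR, and it is among the genes missing from RMA early 1.

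In the list of heat shock and unfolded protein response genes, Atf4 passed. This transcription factor gene of the integrated stress response was at 245, 381 and 295 with RMA and 122, 106 and 118 with RMA-KR. The controls ran from 206 to 375, with RMA early 2 above them, the other RMA values within and the RMA-KR values below. Atf4 fell by 1.41 on the log2 scale (SE 0.25, edgeR quasi-likelihood test with Benjamini-Hochberg adjusted p = 0.0187), and against the controls its log2 fold change was 0.04 with RMA and -1.38 with RMA-KR. Without RMA early 1 and 2 it was -1.35 and did not pass. The mitochondrial chaperonin gene Hspe1, at 15.2, 31.0 and 19.4 against 4.64, 4.52 and 6.84, did not pass (log2 -2.04, SE 0.49, edgeR Benjamini-Hochberg adjusted p = 0.0769). Hsp90ab1 was at 1151, 1619 and 1459 against 1071, 750 and 655, also without overlap. The 24 listed genes had a median of -0.31, with 6 lower and 1 higher at an unadjusted p under 0.05, beside 5.65% and 6.64% of all tested genes. The median was -0.37 to -0.09 with 1 of the 6 libraries left out and -0.19 without RMA early 1 and 2.

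Cytotoxic genes had a median of 0.11 over 19 genes, with Gzmc the listed gene that fell. Gzmb was at 1904, 2386 and 2216 normalized CPM with RMA and 1734, 1231 and 1321 with RMA-KR, and Prf1, the perforin gene, at 4524, 4528 and 4056 against 4332, 3719 and 3844. Gzmb did not overlap between the tumors but both groups lay within the controls, which ran from 811 to 2887, and Prf1 overlapped. The log2 fold changes were -0.60 (SE 0.32) and -0.14 (SE 0.24). Unc13d, the priming factor gene of granule release, was at 334, 410 and 314 against 184, 126 and 138, lower in each RMA-KR library, and missed the adjusted p threshold (log2 -1.24, SE 0.28, edgeR Benjamini-Hochberg adjusted p = 0.0522). Rab27a, a GTPase gene of granule docking chosen after its values were seen, lay the other way at 60.3, 55.6 and 82.1 with RMA and 142, 131 and 135 with RMA-KR and did not pass (log2 1.04, SE 0.32, edgeR Benjamini-Hochberg adjusted p = 0.2). Without overlap 3 listed genes were higher and 3 lower (15.8% each, against 7.21% and 5.56% of all tested genes). Gzme, Gzmf and Gzmg had 0 counts in all 6 libraries.

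Of the cytokine and chemokine genes 0 passed in edgeR, 0 were higher and 1 lower at an unadjusted p under 0.05, beside 6.64% and 5.65% of all tested genes, and DESeq2 and limma called 0. Ifng was at 256, 332 and 339 with RMA and 327, 320 and 251 with RMA-KR, and Ccl3, a chemokine gene, at 1002, 1681 and 1295 against 1349, 911 and 1006. The values of both overlapped and lay inside the wide range of the controls, 59.3 to 373 for Ifng and 164 to 1900 for Ccl3. The low end of both ranges was control 4 alone, with the other controls from 253 for Ifng and from 1124 for Ccl3. Below those others lay RMA-KR early 3 for both genes, and RMA early 1 and RMA-KR early 2 for Ccl3. Cd69, an activation marker gene, was at 274, 388 and 446 against 387, 289 and 336. Immediate early genes had a median of 0.02 over 34 genes, with 0 passing in edgeR, DESeq2 or limma. At an unadjusted p under 0.05 were 2 higher and 0 lower. Without overlap 5 of them were higher (14.7%, against 7.21% of all tested genes) and 1 lower (2.94%, against 5.56%). The list median ran from -0.125 to 0.127 with 1 of the 6 libraries left out. For Ifng, Ccl3 and Cd69 the spread between control libraries exceeded the difference between the tumors.

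Activating receptors and their signaling genes had a median of 0.02 over 27 genes and Ly49 and NKG2 receptors -0.05 over 17. In edgeR 0 of either list passed, with 3 higher and 2 lower, and 1 higher and 0 lower, at an unadjusted p under 0.05, where 6.64% of all tested genes were higher and 5.65% lower. DESeq2 called 1 and 0 of them, and limma 0. Klrk1, which encodes NKG2D, was at 2890, 2254 and 2240 with RMA and 2562, 2592 and 2902 with RMA-KR, and overlapped. B2m, the gene removed from the RMA-KR tumor and intact in the host, was at 4047, 6768 and 5061 against 3727, 4690 and 5241, a check that bears on host NK cells and not on the tumor. Its log2 fold change was -0.22 (SE 0.20).

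Checkpoint genes were uneven between libraries of a group. Havcr2, which encodes TIM-3, was at 0, 23.7 and 0 with RMA and 0 in all 3 RMA-KR libraries, so the value rests on RMA early 2. Lag3 was at 0, 34.0 and 12.4 with RMA and 7.79, 0.613 and 8.37 with RMA-KR, and Tigit at 44.3, 128 and 128 against 110, 122 and 69.5. Both overlapped. Pdcd1, which encodes PD-1, was not tested, with 0, 6 and 0 counts against 6, 0 and 14. Nt5e, the CD73 gene, was at 16.4, 15.7 and 21.8 against 1.95, 2.07 and 9.25, with a log2 fold change of -2.02 (SE 0.86), which ran from -3.15 to -1.66 with 1 of the 6 libraries left out and was nearest to 0 in DESeq2 with its prior on fold changes. Of the 13 listed genes 0 passed in edgeR, 3 were lower and 0 higher at an unadjusted p under 0.05, beside 5.65% and 6.64% of all tested genes, and DESeq2 called 1 and limma 0. The 3 are Havcr2, Nt5e and Ctla4, which had 50, 23 and 0 counts with RMA and 0 in all 3 RMA-KR libraries, and of them only Nt5e did not overlap. Without overlap 2 listed genes, Entpd1 and Vsir, were higher (15.4%, against 7.21% of all tested genes) and 1 was lower (7.69%, against 5.56%).

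NK maturation genes, the transcription factors and surface molecules that mark stages of development, had 7 of 28 members higher with RMA-KR without overlap and 0 lower, beside 7.21% and 5.56% of all tested genes. Ets1, a factor of NK development, was at 913, 1213 and 1162 normalized CPM with RMA and 1635, 1895 and 2065 with RMA-KR, with controls from 994 to 1372. Gata3 was at 103, 158 and 187 against 236, 271 and 272, and Id2, a factor of innate lymphoid cells, at 951, 1093 and 928 against 1341, 1449 and 1535. Every RMA-KR value of these genes exceeded every RMA value. Ets1 had a log2 fold change of 0.77 (SE 0.19, edgeR Benjamini-Hochberg adjusted p = 0.0834) and 0.68 without RMA early 1 and 2. The list median was 0.11, with 7 higher and 0 lower at an unadjusted p under 0.05 (6.64% and 5.65% of all tested genes), and 0 passed in edgeR, DESeq2 or limma. That median ran from 0.105 to 0.255 with 1 of the 6 libraries left out.

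Exhaustion-associated regulators had a median of 0.28 over 17 genes, and -0.16 without RMA early 1 and 2. Tox was at 80.2, 78.4 and 60.3 with RMA and 84.8, 138 and 120 with RMA-KR, without overlap but with RMA early 1 and RMA-KR early 1 close (log2 0.65, SE 0.23, edgeR Benjamini-Hochberg adjusted p = 0.29). In edgeR 0 passed and 4 were higher and 0 lower at an unadjusted p under 0.05, beside 6.64% and 5.65% of all tested genes, and DESeq2 and limma called 0. Among negative regulators of receptor signaling, with a median of 0.00 over 26 genes, the phosphatase gene Ubash3b was at 113, 80.1 and 142 against 211, 207 and 217 and did not pass (log2 0.92, SE 0.22, edgeR Benjamini-Hochberg adjusted p = 0.0777). Of these 26 genes 5 were higher without overlap (19.2%, against 7.21% of all tested genes) and 0 lower. At an unadjusted p under 0.05 were 2 higher and 1 lower (6.64% and 5.65% of all tested genes), and edgeR, DESeq2 and limma called 0. Itgad, an integrin gene, was at 4.67, 17.7 and 17.4 against 14.7, 25.1 and 41.8, and overlapped.

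The remaining lists are given by their medians, beside 0.03 over all tested genes, and by their numbers at an unadjusted p under 0.05, beside 6.64% higher and 5.65% lower over all tested genes. Oxidative phosphorylation subunits were at 0.07 over 75 genes (4 higher, 5 lower unadjusted), IL-2 and IL-15 response genes at -0.11 over 25 (1 higher, 2 lower) and IL-12 and IL-18 response genes at -0.05 over 24 (1 higher, 3 lower). Glycolysis genes were at -0.08 over 18 (1 higher, 3 lower), BCL2 family genes at 0.11 over 15 (3 higher, 0 lower) and mitochondrially encoded subunits at -0.21 over 8 (1 higher, 2 lower). Trafficking receptors and adhesion molecules were at -0.01 over 20 (4 higher, 0 lower), and ILC1 and tissue residency genes at 0.34 over 12 (0 higher, 0 lower). Without RMA early 1 and 2 the median was -0.14 for the BCL2 family and 0.18 for the ILC1 list. With 1 of the 6 libraries left out, medians crossed 0 for glycolysis (-0.21 to 0.04) and the BCL2 family (-0.05 to 0.45). They also did for the IL-12 and IL-18 list (-0.16 to 0.03) and trafficking (-0.13 to 0.09). The range was 0.165 to 0.63 for the ILC1 list and 0.015 to 0.134 for oxidative phosphorylation. It was -0.21 to -0.07 for IL-2 and IL-15 and -0.28 to -0.15 for mitochondrially encoded subunits. In edgeR 0 genes of these lists passed. DESeq2 called 1 gene of the IL-12 and IL-18 list and 0 of the others, and limma 0.

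**Figure D4:**
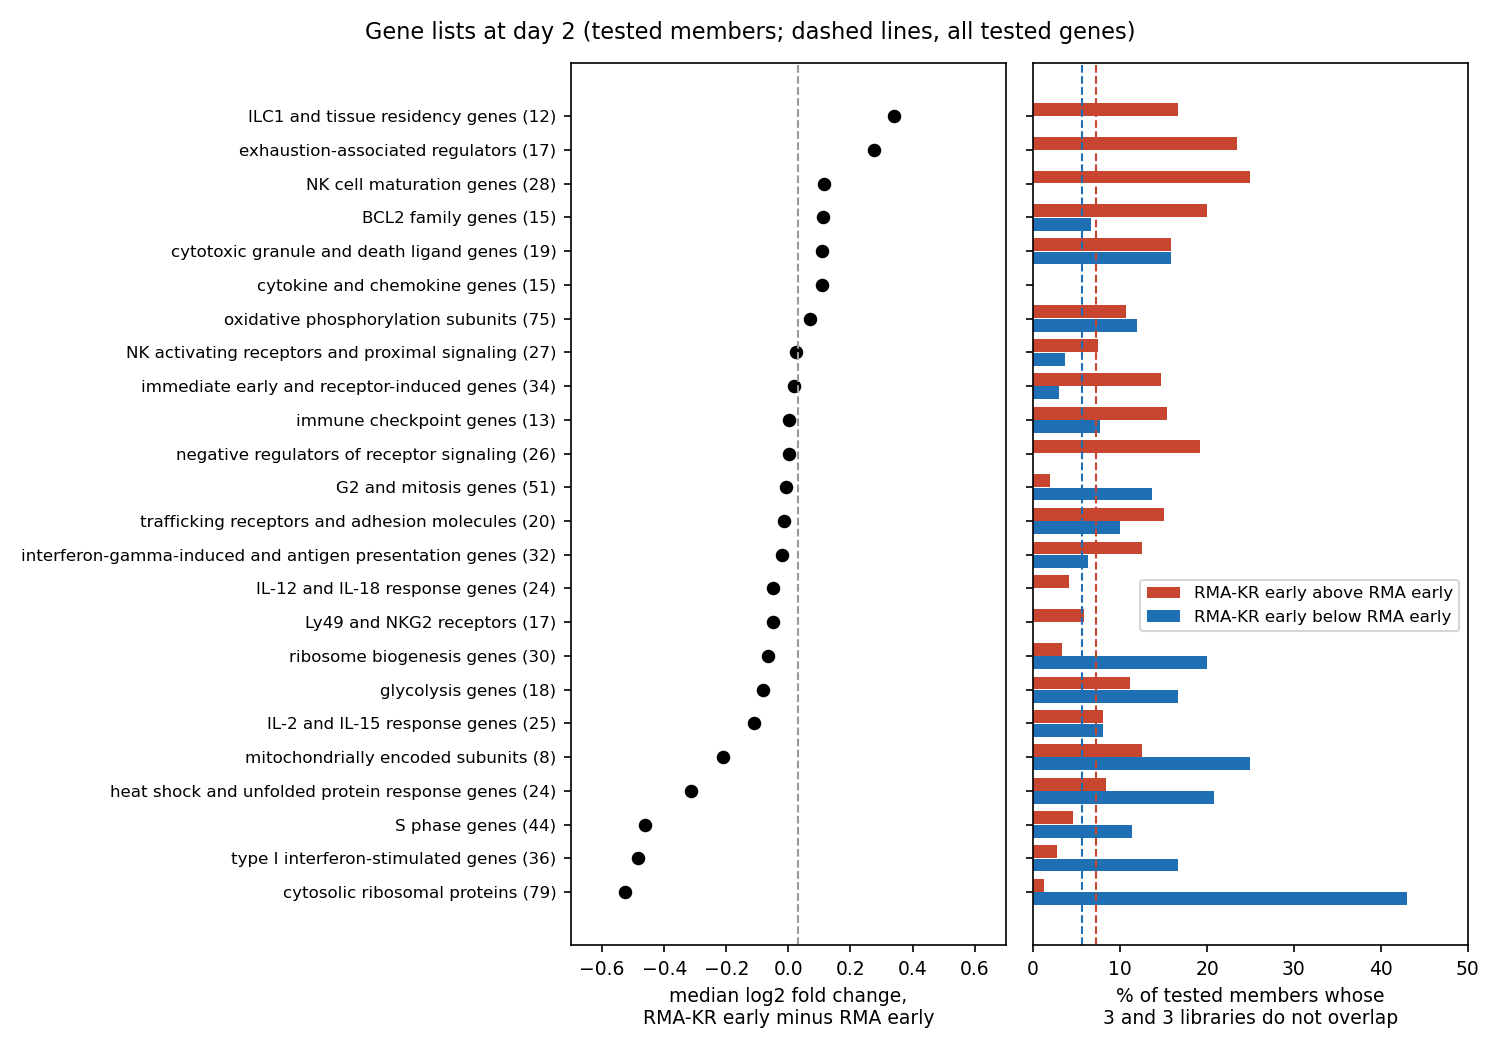
Left, the median log2 fold change on day 2, RMA-KR minus RMA, over the tested genes of each list (number in brackets), and right, the percentage of those genes higher (red) or lower (blue) with RMA-KR without overlap, with dashed lines for all tested genes. The cytosolic ribosomal proteins have the lowest median, -0.53, and 43% of them are lower without overlap.

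The day 2 difference was then set against the late difference, between RMA-KR on day 14 and RMA on day 9, where tumor and day cannot be told apart. Ndufaf7 had a tumor difference of 2.48 on day 2 and -0.46 late on the log2 scale, and Serpine2, a serine protease inhibitor gene, had -1.64 and 2.15. Serpine2 was at 15.5, 34.2 and 26.3 normalized CPM with RMA and 7.70, 10.8 and 5.96 with RMA-KR on day 2, without overlap. Atf4 had -1.41 and -0.23. The test of the difference between the differences gave 2.94 for Ndufaf7 (edgeR Benjamini-Hochberg adjusted p = 0.0745) and -3.78 for Serpine2 (edgeR Benjamini-Hochberg adjusted p = 0.0831). In edgeR's quasi-likelihood test after Benjamini-Hochberg adjustment 0 of 17097 genes passed (0%), with 1777 at an unadjusted p under 0.05. DESeq2 called 137 by default and 59 with its prior on fold changes, and limma called 0. Without RMA early 3 edgeR called 62, without RMA-KR early 3 it called 8 and without RMA-KR late 2 it called 6.

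The count of genes that passed on day 2 moved with the test and with the libraries in the fit. DESeq2 called 297 by default and 181 with its prior on fold changes, limma 7, and edgeR called 1, not among the 52, when fitted to the 6 libraries alone. No gene of the 52 changed direction in the 16 alternatives, and none passed in all 16.

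**Figure D5:**
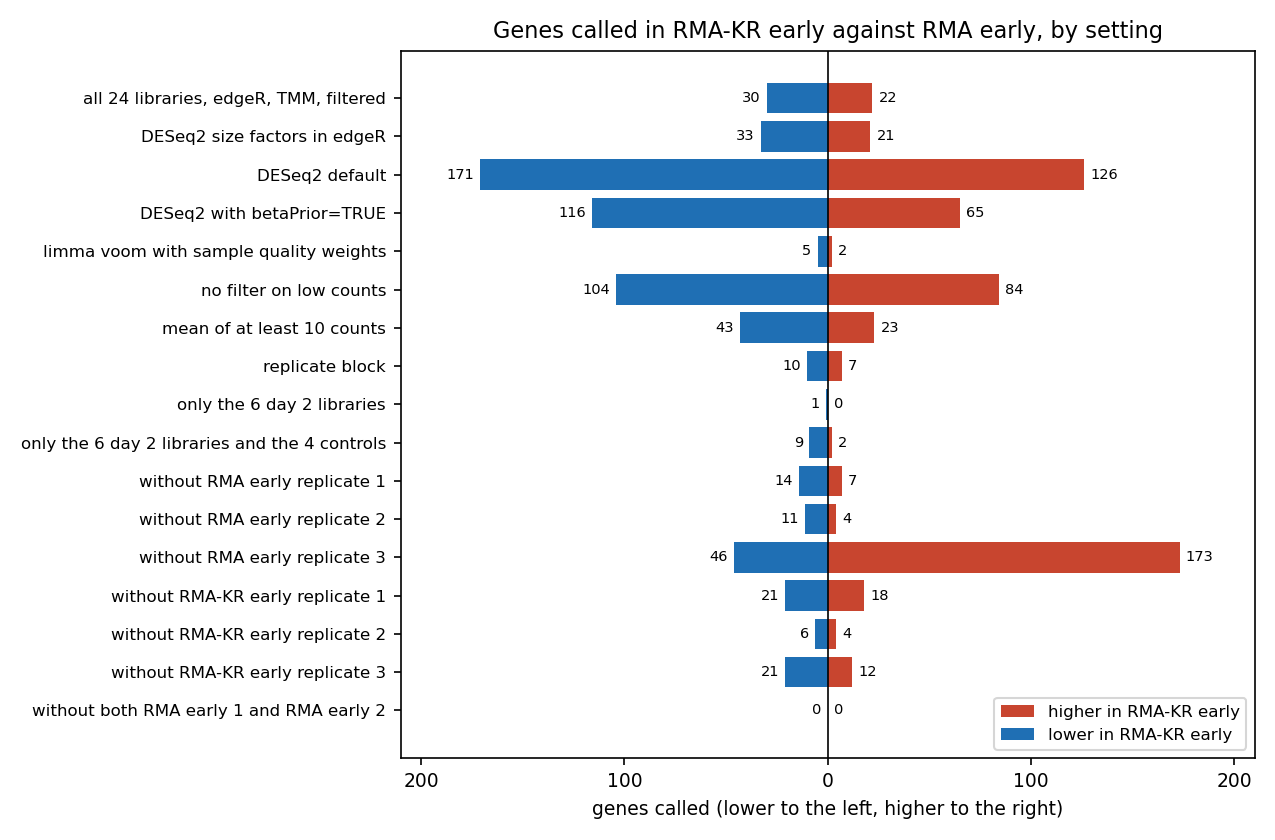
Bars give the number of genes called lower (left) and higher (right) with RMA-KR on day 2 in each setting of the test. The setting at the top gives 22 higher and 30 lower, and leaving out RMA early 3 gives 173 higher and 46 lower.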

How the data were processed

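RNA-seq of sorted splenic NK cells gave 24 libraries in 7 groups, taken from the sample labels. The deposited values used are raw counts per gene, which the authors made by trimming with cutadapt 1.10, removal of ribosomal RNA reads, alignment to mm10 and counting, the submitters' processing notes naming Bowtie2 2.2.8, STAR 2.5.3a, HTSeq 0.6.1p1 and DESeq2 1.16.1. Whether counting used strand is not given in the sources used here. Another 48 per-library columns of the table and the authors' comparison columns of fold changes and p-values were not used. Members and gene lists were chosen with earlier results of these data known.

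Of 45237 genes 17097 passed filterByExpr over the 7 groups. Counts were scaled by TMM and fitted in edgeR 4.0.16 (R 4.3.3) with 1 mean per group over all 24 libraries, then tested by the robust quasi-likelihood test, with p-values adjusted by Benjamini-Hochberg across the 17097 genes. A call needed an adjusted p under 0.05 and a fold above 2. The common biological coefficient of variation was 0.852. Libraries of a group differed beyond counting noise, with a chi-square per degree of freedom of 46.62 to 87.58 in pairs of day 2 libraries. The scripts were tested on simulated data. A floor of 3 counts per library stood for groups at 0, and with 1 to 3 counts the ratio of summed counts has an exact 95% interval.

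Named genes were the 10 highest and 10 lowest fold changes among called genes without overlap, called list members, genes the study names or whose proteins it measured, and in each list the 2 genes of smallest p, 92 in all. Not every gene named in this way is given here. Rplp2, Rpsa, Rps4l, Trim30a, Hsp90ab1, Gata3, Fbl, Ncl and the genes marked so in the text fall outside the rule and were chosen after their values were seen. Lists were described by counts and medians, without a set test. Promoters were read from RefSeq. Alternatives were DESeq2 1.42.0 (default and with betaPrior), limma 3.58.1 voom with sample weights, DESeq2 size factors, no filter, a mean of at least 10 counts, a replicate block, fewer groups in the fit, each library left out in turn and, chosen after seeing the data, both RMA early 1 and 2 left out. Figures were drawn with matplotlib 3.10.9 in Python 3.11.15.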

Additional observations from a re-analysis of the deposited data

Results flagged for a closer look

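In 8 of the 92 named genes the lowest or highest of the 4 control libraries lay far from the other 3, by its gap to the nearest of them over the range of the 4. Chance gives such a library in about 1 in 20 groups. In normalized CPM, Prkci was at 3.09 in control 2, with the others at 12.2 to 13.4. Lamp1, a lysosomal membrane gene used to mark degranulation, was at 172 in control 3. Hspe1 was at 11.3 in control 4, with the others at 16.6 to 17.4. Lap3 was at 22.4 in control 1, with the others at 38.1 to 39.9, and Llgl1 at 46.8 in the same library, with the others at 84.3 to 88.4. Dok3 was at 1.34 in control 4, Sh2d1b2 at 0.185 in control 1 and Havcr2 at 0.0965 in control 2, each at 0 in the other 3. With the others at 0 the gap over the range is 1 whatever the value, so the chance rate does not apply to these 3 genes. The controls enter the difference between the tumors only through the shared estimate of spread, the filter on low counts and the scaling.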

How the results depend on the processing

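The day 2 count of 52 was 54 with DESeq2 size factors and 66 with a mean of at least 10 counts. It was 297 in DESeq2, 181 with betaPrior, 7 in limma, 188 with no filter, 1 with the 6 day 2 libraries alone, not among the 52, and 11 with these and the controls, of which 5 are. Leaving out 1 library gave 10 (RMA-KR early 2) to 219 (RMA early 3), with 21 and 15 without RMA early 1 and 2 and 33 without RMA-KR early 3. Higher calls were 42.3% of the 52 and 79% without RMA early 3. Without both RMA early 1 and RMA early 2, chosen after seeing the data, edgeR called 0, with 997 at an unadjusted p under 0.05. The difference against the late stage gave 0, and 137 in DESeq2, 59 with betaPrior, 115 with no filter and 0 to 62 with 1 library left out. The cause was not tested.

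With the replicate number as a block the counts were 17, each among the 52, and 2 for the difference against the late stage. The numbers did not pair the libraries. Deviations of RMA and RMA-KR libraries with the same number correlated at 0.035, -0.01 and -0.002 across genes, and not every library correlated best with its own number.

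Of 335 values of the 21 named genes called, 335 kept their sign and 167 passed. Of 1134 values of the 71 not called, 34 passed, and at 2 decimals 22 in 10 genes had the other sign. Not counted are Tigit (-0.35 to 0.22), Mki67 (-0.58 to 1.69) and Lamp1 (-0.24 to 0.17), at 0.00 with every library, and values of 0.00 for B2m, Ctla4 and Havcr2 in some settings. Without both libraries the log2 fold change was -0.39 for Csf2, -0.17 for Itga1, -0.03 for Il2rb, 0.19 for Ncr1 and 2.53 for Klra17, and Ncr1 was at 0.07 in limma and 0.02 with no filter. Leaving out 1 library gave -0.40 to 0.82 for Itga1, -0.09 to 0.04 for Ncr1, -0.16 to 0.31 for Ifnar1, -0.01 to 0.07 for Klrb1c, -0.16 to 0.07 for Ifng, -0.31 to 0.03 for Cd69 and -3.46 to 1.86 for Rsad2. Of 384 list medians 61 changed sign.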
